A study of Rattus norvegicus with 10 samples.

Results

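The subunits of the NMDA receptor were examined in the prefrontal cortex (PFC) of rats 24 h after acute inescapable footshock (FS). The family has 7 genes, Grin1, Grin2a, Grin2b, Grin2c, Grin2d, Grin3a and Grin3b, and a gene entered when the array held a probe set annotated with its symbol alone. This left 6 of the 7 genes, each with 1 probe set, among 16941 genes measured by 18304 probe sets. The probe set of Grin3b also carries the symbol Tmem259, so no value is given for Grin3b. The FS group were adult male Sprague–Dawley rats given a 40 min session at 0.8 mA with 20 min of actual shock, put back in their home cages and killed 24 h after the session began (n = 5). The controls were rats of the same strain and sex that stayed undisturbed in their home cages (n = 5). The whole PFC was taken without separating its subregions, and the RNA of each rat was hybridized to 1 whole-transcript array.

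The NMDA receptor is a glutamate-gated cation channel of excitatory synapses that passes calcium when glutamate and a co-agonist are bound and the membrane is depolarized. It assembles from GluN1, the obligatory subunit that binds glycine or D-serine, together with GluN2 subunits, which bind glutamate and set the kinetics of the channel, or GluN3 subunits, which bind glycine and lower its calcium permeability. In the rodent cortex, GluN2B prevails early in life and GluN2A joins it as synapses mature. Calcium entry through the receptor drives synaptic plasticity and the transcription of activity-dependent genes.

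For none of the 6 subunits did the level in FS rats differ from that in controls beyond the test 24 h after FS. A level is the log2 value that RMA, the normalization used by the authors, gives to a probe set, and a difference is FS minus control on that scale. Of the 6 subunits, 3 had a positive and 3 a negative difference, between -0.10 for Grin2c and 0.064 for Grin2d. In limma, 0 of the 6 passed an adjusted p of 0.05, and 0 had an unadjusted p under 0.05. Over all probe sets tested, 0 (0%) passed the adjusted threshold and 1802 (9.84%) had an unadjusted p under 0.05. In 0 of the 6 subunits did the FS rats lie entirely on one side of the controls, which was so for 1.94% of all probe sets. The intervals of the 6 differences reached at most a 1.16-fold change in either direction. In a bulk sample, fewer cells of a type and less RNA per cell cannot be told apart.

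**Figure D1:**
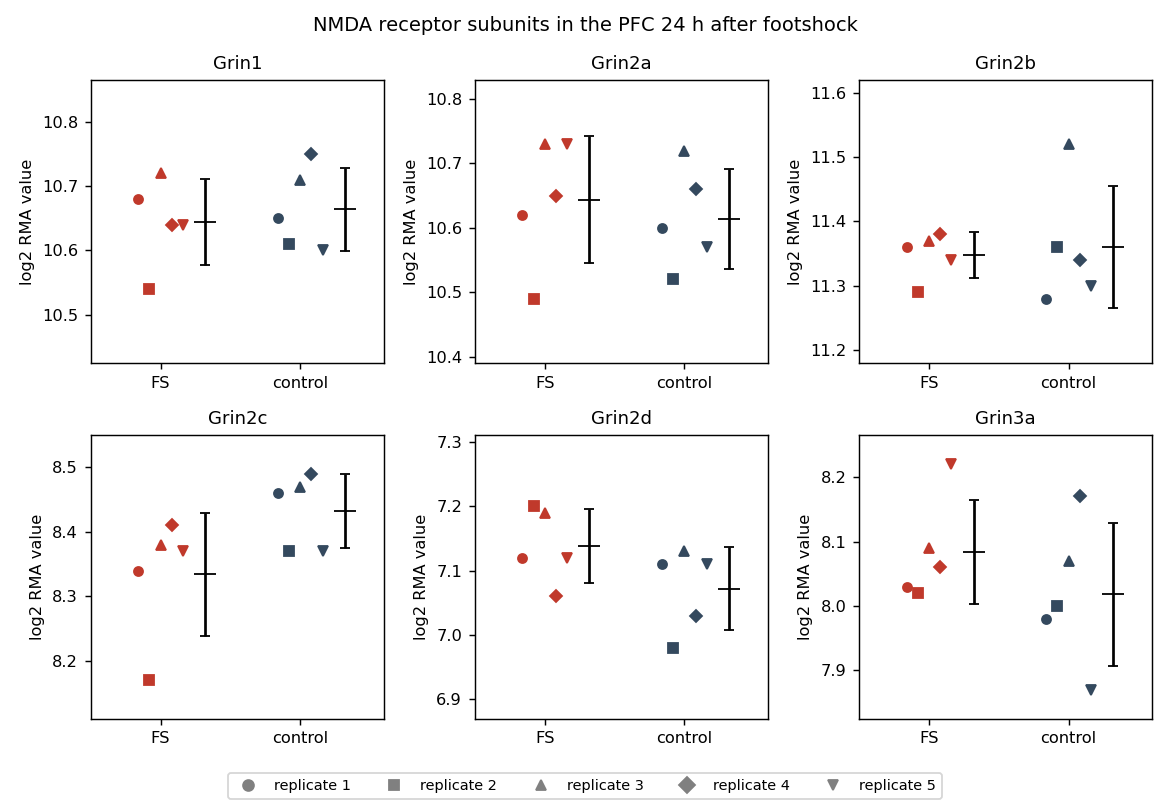
Log2 RMA value of each of the 6 subunits (y axis, every panel spanning the same range) in the 5 FS rats, at the left, and the 5 controls, at the right. Each symbol is a rat, and the bar beside it gives the mean and SD of the group. The groups overlap in every panel, and FS replicate 2 is the lowest FS rat for Grin1, Grin2a, Grin2b, Grin2c and Grin3a.

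Grin1 encodes GluN1, without which no functional receptor reaches the membrane. Its level was 10.68, 10.54, 10.72, 10.64 and 10.64 in FS replicates 1 to 5, against 10.65, 10.61, 10.71, 10.75 and 10.60 in control replicates 1 to 5. The range of the FS rats took in most of that of the controls, with FS replicate 2 below all controls and control replicate 4 above all FS rats. The mean was 10.65 ± 0.067 in FS rats and 10.66 ± 0.065 in controls (SD, n = 5 each). The difference of -0.015 (95% interval -0.11 to 0.082, adjusted p = 0.930 in limma) was smaller than the SD of either group, and it was 0.011 without FS replicate 2 and 0.0064 without control replicate 4.

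A short stretch near the start of Grin1 is shown because it carries the letters of a binding element of Egr factors, which stand among the calcium-induced genes described further on. In RefSeq (GRCr8), the stretch lies at chr3:28528710-28528739 on the minus strand, just after the annotated start, and the capitals mark the element GCGGGGGCG with the GC box GGGCGG that overlaps it.
Grin1: gcgtcaggaaGCGGGGGCGGtgggaggggt
A window of 250 bases before to 50 bases after the start was searched on both strands in the 4 of 7 subunit genes that the promoter table holds. The Egr element occurs in 2.73% of all 33469 windows of that length and the GC box in 33.1%, and of the 4 subunit windows only that of Grin1 holds either. These are matches of letters, and no binding was measured.

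Grin2a encodes GluN2A, the subunit of fast-decaying mature receptors. Its level was 10.62, 10.49, 10.73, 10.65 and 10.73 in FS replicates 1 to 5, against 10.60, 10.52, 10.72, 10.66 and 10.57 in control replicates 1 to 5. Both the lowest rat and the 2 highest were FS rats. The mean was 10.64 ± 0.10 in FS rats and 10.61 ± 0.079 in controls (SD, n = 5 each), a difference of 0.030 (95% interval -0.088 to 0.15, adjusted p = 0.878 in limma). It was 0.070 without FS replicate 2 and 0.058 without control replicate 3. It was between 0.0069 and 0.019 when FS replicate 3 or 5 or control replicate 2 or 5 was left out. With each array centred on its median it was 0.0088, and with the mean of striatal markers as a covariate 0.014.

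Grin2b encodes GluN2B, which gives the channel a slower decay and binds CaMKII. Its level was 11.36, 11.29, 11.37, 11.38 and 11.34 in FS replicates 1 to 5, against 11.28, 11.36, 11.52, 11.34 and 11.30 in control replicates 1 to 5. All FS rats lay inside the range of the controls. The controls were spread more widely, with an SD of 0.094 against 0.035 in FS rats, and control replicate 3 stood above the other rats. That rat was also the lowest in the markers of oligodendrocytes (mean of 9 genes, each centred over the rats, -0.37, against -0.16 to 0.19 in all other rats) and of their precursors (-0.12, against -0.033 to 0.059), and their part in its Grin2b level was not tested. The mean was 11.34 in FS rats and 11.36 in controls, a difference of -0.018 (95% interval -0.12 to 0.084, adjusted p = 0.920 in limma), which was 0.022 without control replicate 3 and between -0.037 and -0.0035 when any other rat was left out.

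Grin2c encodes GluN2C, which is best known from cerebellar granule cells and, in mice, from cortical astrocytes. It had the smallest p of the 6 subunits. Its level was 8.34, 8.17, 8.38, 8.41 and 8.37 in FS replicates 1 to 5, against 8.46, 8.37, 8.47, 8.49 and 8.37 in control replicates 1 to 5. All 5 FS rats were below the mean of the controls and 2 of them were below the lowest control, yet the groups overlapped between 8.37 and 8.41. The mean was 8.33 ± 0.096 in FS rats and 8.43 ± 0.056 in controls (SD, n = 5 each), a difference of -0.10 (standard error 0.050, 95% interval -0.21 to 0.0067). It did not pass the test (unadjusted p = 0.0636, adjusted p = 0.524 in limma), and 87.9% of all probe sets had a smaller absolute t.

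FS replicate 2, the rat with the lowest Grin2c, stood apart in the markers of choroid plexus, the secretory epithelium of the ventricles. The mean of these 7 genes, each centred over the rats, was 1.96 in FS replicate 2, between -0.30 and 0.15 in the other FS rats and between -0.40 and -0.12 in controls. Ttr, the transthyretin gene that defines this epithelium, was at 12.90 in FS replicate 2 and at 9.31 in FS replicate 5, while the 3 other FS rats lay between 7.54 and 7.76 and the controls between 6.25 and 8.02. Without FS replicate 2 the difference of Grin2c was -0.060 (adjusted p = 0.657 in limma). Astrocyte markers had a mean between -0.053 and 0.031 in FS rats and between 0.00067 and 0.028 in controls. Of 9 measured, 3 had a positive and 6 a negative difference. At an unadjusted p under 0.05, 2 of the 9 were lower in FS rats, Slc1a3 (-0.10) and S100b (-0.13), against 4.09% of all probe sets, while Aqp4 was at 11.61 in FS rats and 11.65 in controls. Over the 10 rats, after group means were removed, Grin2c had r = -0.341 with the astrocyte markers and -0.797 with the choroid plexus markers. Without the 2 rats farthest from the median of each marker mean, r was -0.233 and -0.336. The part of these cell types in the value of Grin2c was not tested.

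Grin2d encodes GluN2D, a subunit of slow channels that in the rodent cortex is found mainly in interneurons. Its level was 7.12, 7.20, 7.19, 7.06 and 7.12 in FS replicates 1 to 5, against 7.11, 6.98, 7.13, 7.03 and 7.11 in control replicates 1 to 5. FS replicates 2 and 3 were above all controls and the other 3 FS rats lay among them. The mean was 7.14 ± 0.056 in FS rats and 7.07 ± 0.062 in controls (SD, n = 5 each), a difference of 0.064 (95% interval -0.027 to 0.16, adjusted p = 0.624 in limma). It was 0.042 without control replicate 2 and also with each array centred on its median, and 0.038 with quantile normalization. Grin2d was the only subunit of the 6 for which FS replicate 2 was the highest FS rat. Over the 10 rats, after group means were removed, it had r = -0.248 with the interneuron markers. Its r of largest size with a marker list was -0.65, with oligodendrocytes. Without the 2 rats farthest from the median of each marker mean, these were 0.0099 and -0.593. The part of either cell type in the level of Grin2d was not tested.

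Grin3a encodes GluN3A, which is abundant in the juvenile brain and restrains the maturation of synapses. Its level was 8.03, 8.02, 8.09, 8.06 and 8.22 in FS replicates 1 to 5, against 7.98, 8.00, 8.07, 8.17 and 7.87 in control replicates 1 to 5. FS replicate 5 was the highest rat and control replicate 5 the lowest, and the remaining 8 rats were mixed. The mean was 8.08 ± 0.080 in FS rats and 8.02 ± 0.11 in controls (SD, n = 5 each), a difference of 0.063 (95% interval -0.063 to 0.19, adjusted p = 0.743 in limma). Without control replicate 5 it was 0.026, without FS replicate 5 0.029 and without control replicate 4 0.10. With each array centred on its median it was 0.041. Markers of interneurons had a mean of -0.12 in control replicate 5, the lowest of all rats, and of 0.086 and 0.087 in FS replicate 5 and control replicate 4, the highest in each group. Markers of pyramidal neurons were also lowest in control replicate 5 (-0.093) and highest in control replicate 4 (0.069), with -0.0056 in FS replicate 5. Grin3a had r = 0.785 with the interneuron markers and 0.676 with the pyramidal markers. Without the 2 rats farthest from the median of each marker mean, r was 0.457 and 0.262. With the 5 endothelial markers measured, Grin3a had r = -0.626, and -0.815 without the 2 rats chosen in the same way. The other subunits had r between -0.656 and -0.435 with these markers, except Grin2d (0.526). The part of these cell types in the level of Grin3a was not tested.

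**Figure D2:**
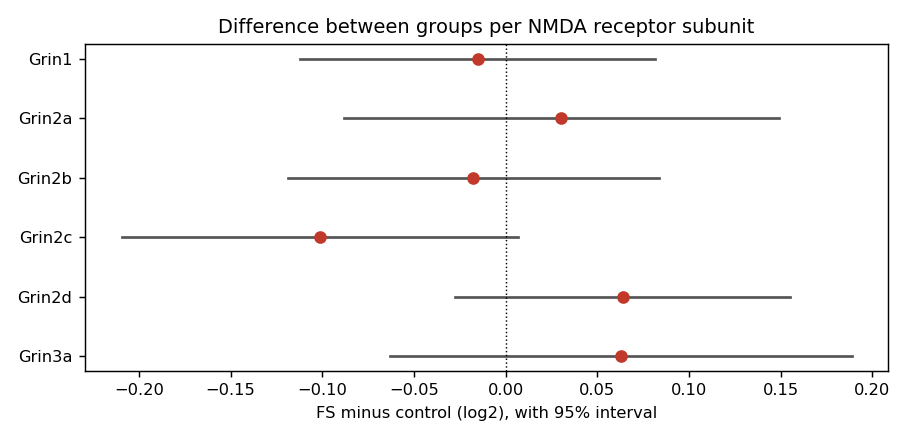
Difference FS minus control on the log2 scale (x axis) for the 6 subunits (y axis), with the 95% interval from limma as a line and 0 as a dotted line. Every interval includes 0, and that of Grin2c, from -0.21 to 0.0067, does so by the least.

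The share of GluN2A and GluN2B sets the properties of cortical NMDA receptors, and the balance of their transcripts was compared within each rat. The offset between probe sets is the same in all rats, so these differences test unequal change and do not say which subunit is more abundant. Grin2a minus Grin2b was -0.73, -0.80, -0.64, -0.73 and -0.61 in FS replicates 1 to 5, against -0.69, -0.84, -0.80, -0.69 and -0.73 in control replicates 1 to 5. The 2 highest values belonged to FS rats and the lowest to a control, but the remaining values were interleaved. The mean was -0.70 ± 0.079 in FS rats and -0.75 ± 0.070 in controls (SD, n = 5 each), a difference of 0.048 (exact permutation test over all choices of 5 of 10 rats, two-sided, p = 0.341, adjusted p = 0.512 over 3 differences). It was 0.073 without FS replicate 2, and 0.024 without FS replicate 5 and also without control replicate 2. Grin2a minus Grin1 was -0.0018 ± 0.060 in FS rats and -0.047 ± 0.043 in controls (SD, n = 5 each), a difference of 0.045 (exact permutation p = 0.230, adjusted p = 0.512), which was 0.024 without FS replicate 5. Grin2b minus Grin1 was 0.70 in both groups and differed by -0.0025 (exact permutation p = 0.944, adjusted p = 0.944), with values between -0.029 and 0.025 when a rat was left out. The smallest p that 5 rats against 5 allow is 0.00794.

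**Figure D3:**
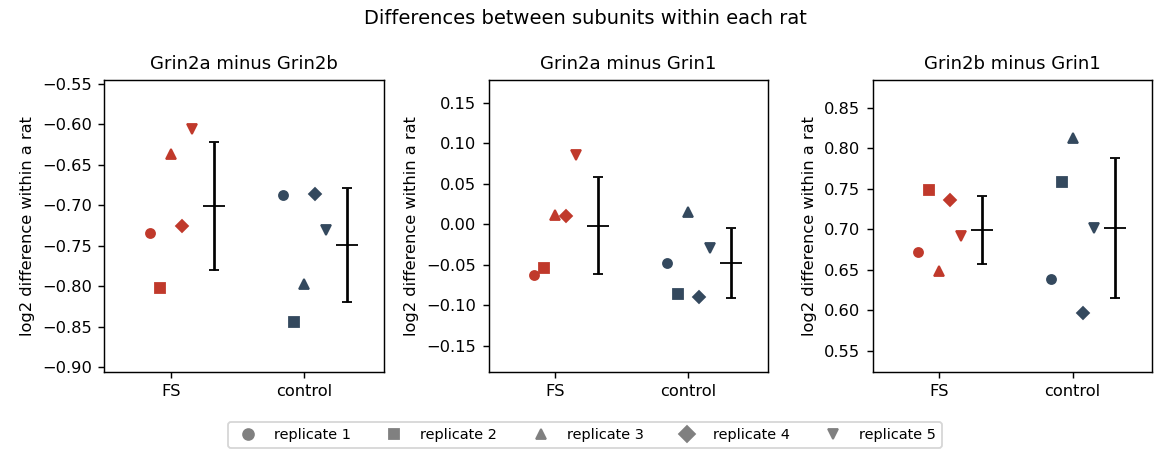
Difference between the log2 values of 2 subunits within a rat (y axis) for the 3 pairs tested, in FS rats at the left and controls at the right of each panel, with the mean and SD beside the points. For Grin2a minus Grin2b, FS replicates 3 and 5 stand highest, and the groups overlap in all 3 panels.

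From rat to rat, the highest Pearson correlations between subunits were those among Grin1, Grin2a and Grin2c, while by rank the pairs of Grin3a with Grin1 and Grin2a were in the same range. Correlations were computed over the 10 rats after the mean of each group was removed, with an exact permutation test of the rats within each group (two-sided) and adjustment over the 15 pairs. Grin2a and Grin2c had r = 0.862 (exact permutation p = 0.0066, adjusted p = 0.0566) and rho = 0.758 (exact permutation p = 0.0198, adjusted p = 0.0723). Grin1 and Grin2a had r = 0.819 (exact permutation p = 0.0113, adjusted p = 0.0566) and rho = 0.782 (exact permutation p = 0.0181, adjusted p = 0.0723). Grin1 and Grin2c had r = 0.818 (exact permutation p = 0.0103, adjusted p = 0.0566) and rho = 0.733 (exact permutation p = 0.0228, adjusted p = 0.0723). Grin2a and Grin3a had rho = 0.770 (exact permutation p = 0.0191, adjusted p = 0.0723) and r = 0.642, and Grin1 and Grin3a had rho = 0.758 (exact permutation p = 0.0241, adjusted p = 0.0723) and r = 0.622. None of these 5 pairs passed after adjustment, and 0 of all 15 did. At an unadjusted p under 0.05 there were 4 pairs for r and 5 for rho. The 4 for r were the first 3 pairs given and Grin2a with Grin2b (r = 0.592, exact permutation p = 0.0472, adjusted p = 0.164). Grin2a and Grin2b had rho = 0.515 (exact permutation p = 0.137, adjusted p = 0.276). Without the 2 rats farthest from the median of the first gene, r was 0.592, 0.749 and 0.685 for the first 3 pairs in the order given, and without FS replicate 2 it was 0.714, 0.683 and 0.679. The pairs with Grin2d had r between -0.26 and 0.087 over all rats and between -0.16 and 0.54 without FS replicate 2, where that of Grin2a and Grin2d was 0.539 and that of Grin1 and Grin2d 0.285. All probe sets of an array share its RNA and its scaling, so a common deviation of a rat enters every pair.

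**Figure D4:**
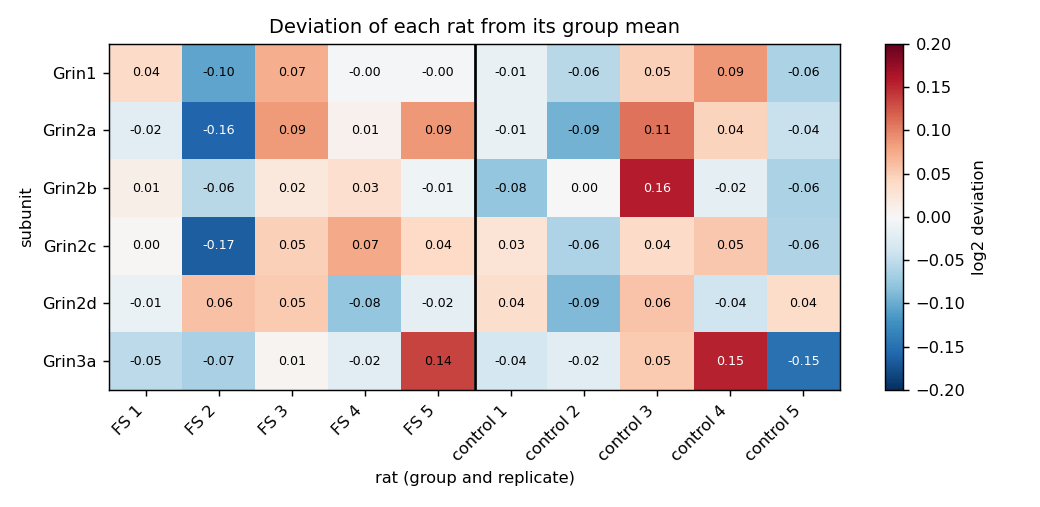
Deviation of each rat (columns, FS rats left of the line and controls right of it) from the mean of its group, on the log2 scale, for the 6 subunits (rows). FS replicate 2 is low for Grin1, Grin2a and Grin2c and control replicate 3 is high for Grin2b, with a deviation of 0.16.

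The spread between rats of the same group lay on both sides of that of a typical probe set. The residual SD was 0.059 for Grin2d, 0.066 for Grin1, 0.071 for Grin2b, 0.079 for Grin2c, 0.090 for Grin2a and 0.098 for Grin3a, against a median of 0.084 over all probe sets. For Grin2d, 21.8% of all probe sets had a smaller residual SD, and for Grin3a 63.8%.

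For each subunit, the 3 genes whose deviations from the group means correlated best with it over the 10 rats were taken from 16940 other genes, as a description. For Grin1 these were Spg11, which encodes spatacsin (r = 0.986), the latrophilin gene Adgrl1 (r = 0.970) and Sec23a, of the vesicle coat of the endoplasmic reticulum (r = 0.967). For Grin2a they were the scaffold gene Magi1 (r = 0.965), the ryanodine receptor gene Ryr2 (r = 0.964) and Ythdf1, which encodes a reader of methylated RNA (r = 0.958). For Grin2b they were Rtf1 (r = 0.921), Cdkl4 (r = 0.918) and Txnrd3 (r = 0.916). Grin2c was closest to the proteasome subunit gene Psmd13 (r = 0.963), Usp31 (r = 0.935) and Clstn1, which encodes the synaptic adhesion protein calsyntenin-1 (r = 0.925). Grin2d was closest to the olfactory receptor gene Or8k22 (r = 0.922), Gimap5 (r = 0.921) and Serpina10 (r = 0.913). Grin3a was closest to the chaperone gene Dnajb1 (r = 0.969) and to the kinase genes Pak4 (r = 0.962) and Pak3 (r = 0.948). Several genes reach such values among so many over 10 rats, as 2.93% of the other genes had r over 0.8 with Grin1 and 0.248% with Grin2d.

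The genes that surround the NMDA receptor were read in 6 lists, of scaffolds, kinases and phosphatases, trafficking partners, co-agonist supply, the kynurenine pathway and genes induced by calcium entry. Of their 106 measured genes, 0 passed the adjusted threshold in limma, and 9 (8.49%) had an unadjusted p under 0.05, against 9.84% of all probe sets. Of these, 2 were higher and 7 lower in FS rats, against 5.75% of all probe sets that were higher and 4.09% that were lower. Without FS replicate 2 there were 11, of which 5 were higher and 6 lower, and 7 were shared with the 9. Groups did not overlap for 2 of the 106 genes, Nos1 and Gldc, against 1.94% of all probe sets. Over all 16941 genes the median difference was 0.00070, with 8549 genes above and 8392 below 0.

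Among the scaffolds, which anchor the receptor in the postsynaptic density, 14 of 17 measured genes had a negative difference, and the median was -0.030. Without FS replicate 2, 12 of 17 were negative and the median was -0.015. The genes of the PSD-95 family, Dlg1, Dlg2, Dlg3 and Dlg4, which bind GluN2 tails, had differences of -0.020, -0.026, -0.030 and -0.026. Nos1, the neuronal nitric oxide synthase that PSD-95 couples to the receptor, was at 7.99, 7.95, 8.09, 7.95 and 8.05 in FS replicates 1 to 5, against 8.10, 8.19, 8.16, 8.10 and 8.13 in control replicates 1 to 5. All 5 FS rats lay below all 5 controls, and groups were fully apart in either direction for 1.94% of all probe sets. The difference of -0.13 (standard error 0.040) did not pass (adjusted p = 0.381 in limma). The highest t belonged to Cnksr2 (0.094, adjusted p = 0.676).

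Of the kinases and phosphatases that act on the receptor, 12 of 24 had a positive difference and 0 had an unadjusted p under 0.05, with a median of -0.0039. Camk2a and Camk2b, the CaMKII genes of excitatory neurons, had differences of -0.012 and -0.014. The extremes were Camk2g (0.073, adjusted p = 0.560) and Ppp1r9b, which encodes spinophilin (-0.089, adjusted p = 0.549). When the arrays were centred on their medians, which moved the median of all probe sets by -0.022, 4 of the 24 were positive. With quantile normalization 11 of the 24 were, so the balance of this list varied with the centring. Without FS replicate 2, 14 of the 24 were positive and the median was 0.0073.

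Of the trafficking partners, 8 of 18 had a positive difference, with a median of -0.011. When FS replicate 2 was left out, 9 of 18 were positive and the median was -0.0062. Lrp8, a reelin receptor that associates with NMDA receptors, was at 9.29, 9.21, 9.39, 9.34 and 9.36 in FS replicates 1 to 5, against 9.35, 9.41, 9.44, 9.40 and 9.48 in control replicates 1 to 5. The groups overlapped only through FS replicates 3 and 5 and control replicate 1. The difference of -0.097 did not pass (adjusted p = 0.499 in limma). Lrp8 had an unadjusted p under 0.05 over all rats but not without FS replicate 2, its lowest rat. With quantile normalization, 0 of the 18 genes were lower and 1 was higher at that unadjusted threshold. Lin7b, of the complex that carries GluN2B along dendrites, had the highest t (0.087, adjusted p = 0.522).

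Of the genes that supply D-serine and glycine, 12 of 17 had a negative difference, with a median of -0.041. Srr, the serine racemase that makes D-serine, had a difference of 0.0020. Gldc, the glycine decarboxylase of the glycine cleavage system, was at 7.98, 7.72, 7.92, 7.98 and 7.94 in FS replicates 1 to 5, against 8.00, 8.08, 7.99, 8.06 and 8.21 in control replicates 1 to 5. All FS rats lay below all controls by a small gap, and 1.94% of all probe sets were so separated in either direction. The difference of -0.16 (standard error 0.058) did not pass the test (adjusted p = 0.433 in limma). The other genes of that system, Amt and Gcsh, had differences of -0.041 and -0.087. Slc6a5, the glycine transporter GlyT2, had the highest t (0.10, adjusted p = 0.535).

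The kynurenine pathway breaks down tryptophan and yields quinolinic acid, an agonist of the NMDA receptor, and kynurenic acid, an antagonist. All 10 of its measured genes had a positive difference, with a median of 0.069, and 9 of 10 were positive when the arrays were centred on their medians. With quantile normalization all 10 were positive, the median was 0.044, and 0 had an unadjusted p under 0.05, against 1 without it. Several levels were low. Controls had a mean of 4.34 for Tdo2, 4.38 for Kynu, 5.29 for Acmsd, 5.57 for Ido1 and 5.62 for Kmo, where the filter was at 4. None of the 10 genes passed the test. Acmsd, which diverts the pathway away from quinolinic acid, was at 5.39, 5.45, 5.35, 5.55 and 5.65 in FS replicates 1 to 5, against 5.28, 5.08, 5.40, 5.39 and 5.31 in control replicates 1 to 5. 3 of the FS rats were above all controls (difference 0.18, standard error 0.071, adjusted p = 0.445 in limma). Kynu had a difference of 0.11, Haao, which makes the precursor of quinolinic acid, one of 0.090, and Kyat1, which makes kynurenic acid, one of 0.0084 (adjusted p = 0.972), the lowest t of the list.

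The genes induced by calcium entry through the receptor had the widest range of differences of the 6 lists. Of 20 measured, 13 had a negative difference (median -0.053), and 1 was higher and 4 were lower at an unadjusted p under 0.05, against 5.75% higher and 4.09% lower over all probe sets. When FS replicate 2 was left out, these counts were the same, with 4 of the 5 genes shared, and the median was -0.090. Egr1 encodes one of the Egr factors, whose element was matched above by its letters only. The level of Egr1 was 11.56, 11.63, 11.62, 11.54 and 11.65 in FS replicates 1 to 5, against 11.97, 12.01, 11.51, 11.69 and 11.78 in control replicates 1 to 5. Control replicate 3 was the lowest of all rats and the other controls lay above all FS rats (difference -0.19, standard error 0.082, adjusted p = 0.485 in limma). Inhba, which encodes the activin beta A chain, had a difference of -0.27 (adjusted p = 0.388), the cyclooxygenase gene Ptgs2 one of -0.25 (adjusted p = 0.463) and Nptx2, which encodes a pentraxin that clusters AMPA receptors, one of -0.17 (adjusted p = 0.436). Ier2, an early response gene, had a difference of 0.19 (adjusted p = 0.369). Fos, Arc and Bdnf had differences of 0.071, -0.12 and -0.041, with adjusted p-values of 0.760, 0.895 and 0.785.

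**Figure D5:**
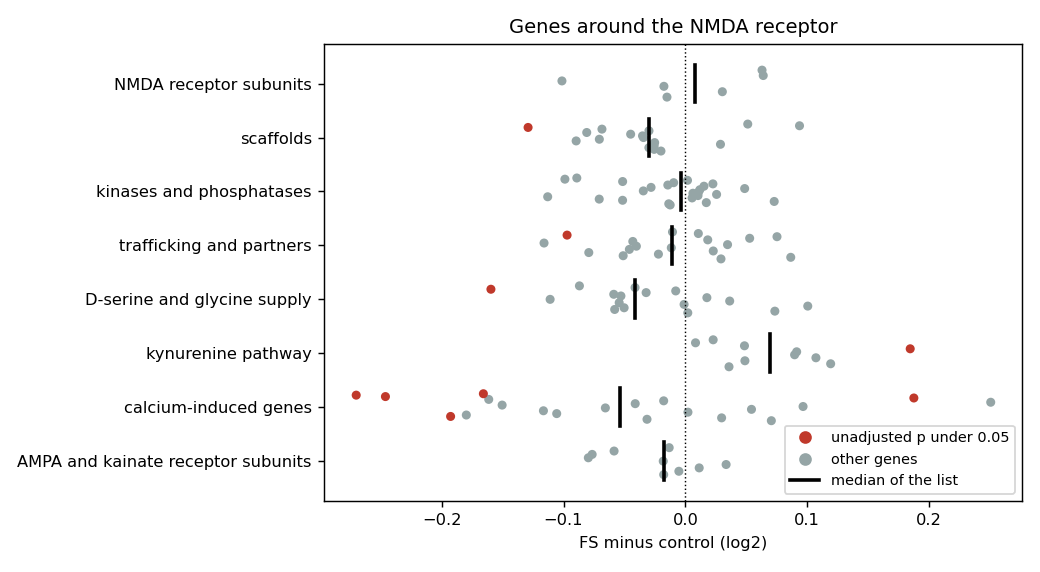
Difference FS minus control on the log2 scale (x axis) of each measured gene (points) in the subunits, in the 6 lists around the receptor and in the AMPA and kainate receptor subunits (y axis). Red points have an unadjusted p under 0.05, and the black bars are the medians, between -0.053 for the calcium-induced genes and 0.069 for the kynurenine pathway.

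The subunits of the other ionotropic glutamate receptors were read beside those of the NMDA receptor. Of the 9 AMPA and kainate receptor genes, 7 had a negative difference, with a median of -0.018, against 3 of 6 and a median of 0.0077 for the NMDA receptor. Without FS replicate 2, 4 of the 9 were negative, with a median of 0.0013, against 2 of 6 and a median of 0.030 for the NMDA receptor. Over all rats the extremes were Grik2, of the kainate receptor GluK2 (-0.080, adjusted p = 0.548 in limma), and Gria4, of the AMPA receptor GluA4 (0.033, adjusted p = 0.853). The difference between the families was not tested.

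Markers of neurons and glia were read in both groups. Slc17a7, the vesicular glutamate transporter of cortical pyramidal neurons, was at 12.29 in FS rats and 12.25 in controls, and Gad1, of GABAergic neurons, at 10.30 in FS rats and 10.34 in controls. Mbp, of oligodendrocytes, was at 11.65 in FS rats and 11.72 in controls, and Cx3cr1, of microglia, at 10.76 in FS rats and 10.87 in controls. Drd1, a dopamine receptor gene abundant in striatum, was at 7.75 in FS rats and 7.89 in controls. It ran from 7.17 to 8.11 between FS rats and from 7.33 to 8.34 between controls. Of the 10 interneuron markers, Lamp5 alone had an unadjusted p under 0.05 (0.16, adjusted p = 0.502 in limma), and 5 were positive and 5 negative. Of 14 measured markers of striatal medium spiny neurons, 3 had a positive and 11 a negative difference, with a median of -0.15. None of them had an unadjusted p under 0.05. Their mean varied widely between rats, from -0.51 to 0.20 in FS rats and from -0.45 to 0.48 in controls. With this mean as a covariate, the differences of the 6 subunits kept their directions, and that of Grin2c was -0.11 (adjusted p = 0.541 in limma).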

How the data were processed

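The RNA was hybridized to whole-transcript rat gene arrays of Affymetrix. The authors used oligo 1.58.0 for reading and for RMA, and the deposited log2 values were kept unchanged. The genome build of the array design and the hybridization batches are not given in the sources used here. The labels gave the groups and the replicate numbers. Array medians lay between 7.35 and 7.37 in FS rats and between 7.32 and 7.37 in controls, and correlations between arrays between 0.994 and 0.997. The number of arrays limits the precision.

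Gene symbols were taken from the annotation of the platform. Of 29214 probe sets, 18644 have 1 symbol, and the 18304 of these with a mean above 4 were fitted in limma 3.58.1 (R 4.3.3), as FS against controls with eBayes, and p-values were adjusted over all of them (Benjamini–Hochberg). Where a gene had more than 1 probe set, that with the highest mean stood for it. Exact permutation tests were run in Python 3.11.15. The limma fit was tested on simulated data, and the exact test of the differences within a rat on a fixed set of made-up values. The text names all subunits, the genes of each pathway and comparison list with the highest and lowest t or an unadjusted p under 0.05, 3 genes per subunit of like pattern, and defining markers (Slc17a7, Gad1, Aqp4, Mbp, Cx3cr1, Cldn5, Drd1 and Ttr). Other markers were read by counts and ranges. Some further genes (Dlg1 to Dlg4, Camk2a, Camk2b, Srr, Amt, Gcsh, Kynu, Haao, Fos, Arc, Bdnf, Slc1a3, S100b, Lamp5, Slco1a4 and Olig2) were named for their role or marker after their values were seen. Tdo2, Ido1 and Kmo were named for their low levels. The members and lists were chosen with earlier results of these data known. Samples with the same replicate number correlated over 0.1 in 2 of 5 pairs after group means were removed, so the rats were treated as unpaired. Alternatives changed the filter, scaling, array weights, variance prior, block, a striatal marker covariate and the rats included. Lists and pairs without FS replicate 2 were added after the data were seen. The study housed its rats in pairs, and which of these rats shared a cage is not given. Nothing ties the 5 rats of a group to separate litters or cages. The p-values set the difference between groups against the spread between these rats.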

Additional observations from a re-analysis of the deposited data

How the results depend on the processing

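For the 6 subunits, 0 passed an adjusted p of 0.05 in limma under any alternative, and no difference changed direction under the alternatives that kept all rats. Under these it lay between -0.037 and -0.0062 for Grin1, 0.0088 and 0.039 for Grin2a, -0.039 and -0.0082 for Grin2b, -0.12 and -0.080 for Grin2c, 0.038 and 0.064 for Grin2d and 0.041 and 0.082 for Grin3a. The count of subunits at an unadjusted p under 0.05 was 1, that of Grin2c, with each array centred on its median and with the replicate block, instead of 0, and it ranged from 0 to 1 when a rat was left out. With the replicate block, the adjusted p was 0.506 for Grin2c and 0.562 for Grin2a minus Grin2b, and the block changed no call at the adjusted threshold. When each rat was left out in turn, the difference ranged from -0.033 to 0.011 for Grin1, 0.0069 to 0.070 for Grin2a, -0.037 to 0.022 for Grin2b, -0.12 to -0.060 for Grin2c, 0.042 to 0.083 for Grin2d and 0.026 to 0.10 for Grin3a. It ranged from 0.024 to 0.073 for Grin2a minus Grin2b, 0.024 to 0.061 for Grin2a minus Grin1 and -0.029 to 0.025 for Grin2b minus Grin1. Over all probe sets, between 0 and 1 passed the adjusted threshold and between 1333 and 2589 the unadjusted one when a rat was left out, and the 1 appeared without control replicate 2. Of the probe sets at an unadjusted p under 0.05, 58.4% were higher in FS rats, and 31.1% were so with each array centred on its median. That centring moved the median of all probe sets by -0.022 and turned the median of the 6 subunits to -0.014. The probe set of Grin3b was not used, so its alternatives were not run, and no subunit had several probe sets to average. The cause of these shifts was not tested. The number of rats limits the precision, and the intervals in the text give it for each subunit.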

Other observations

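Some markers of vessels and of oligodendrocyte precursors had an unadjusted p under 0.05 and did not pass the adjusted threshold. At that threshold, 5.75% of all probe sets were higher and 4.09% lower in FS rats. Of the 5 endothelial markers measured, 1 had a positive and 4 a negative difference, with a median of -0.069. Cldn5, the tight junction gene of brain vessels, had a difference of 0.13 (adjusted p = 0.436 in limma) and Slco1a4, a transporter of the blood-brain barrier, one of -0.11 (adjusted p = 0.505). Of the 6 markers of oligodendrocyte precursors, 5 had a negative difference, with a median of -0.027, and only Olig2 had a positive one (0.17, adjusted p = 0.449), while 3 of the 6 were positive with quantile normalization. Microglia markers had a mean between -0.029 and 0.012 in FS rats and between -0.16 and 0.12 in controls, and 0 of 9 had an unadjusted p under 0.05 in limma.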
